A study of Mus musculus with 9 samples.

Results

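Fstl4, Lrrk1, Spock2, Epas1, Paqr3 and Armc8 are 6 genes, of 22442 in the count tables and 11718 with a symbol, whose RNA was recovered mostly with 1 of the 2 forms of the RNA-binding protein Chtop. They were selected on the counts measured here, by the difference between the isoforms in the gene total or in a gene part and by the level in the inputs, so their isoform and input values are given as a description, with no p-value. The choice is a list of symbols with no numerical limit, so there is no threshold with genes just inside or outside it. Fstl4, Lrrk1 and Spock2 were counted mostly with the isoform that includes exon 5, and Epas1 and Paqr3 mostly with the isoform that lacks it. Armc8 went against the description as a whole gene, because only its 3' UTR was counted with 1 isoform alone while its coding sequence (CDS) was counted with both.

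Chtop binds mRNA in the nucleus and takes part in mRNA export as a partner of the TREX complex. In iCLIP, ultraviolet light crosslinks protein to RNA in living cells, the protein is recovered with an antibody, and the RNA attached to it is sequenced. A gene's count is therefore set both by how much of its RNA a cell line holds and by how much of that RNA is bound, and the size-matched input, a piece of lysate run on the same gel without the antibody step, measures RNA of that size range before recovery.

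The libraries came from N2a Flp-In rtTA cells, a mouse neuroblastoma line. Immunoprecipitates of FLAG-Chtop with exon 5 and of FLAG-Chtop without exon 5 gave 3 libraries each. The 3 inputs, each from 2% of a lysate, came from 3 lines. Input replicate 1 was taken from cells expressing FLAG-Chtop without exon 5, input replicate 2 from cells expressing the form with exon 5, and input replicate 3 from cells expressing FLAG-GFP. All 9 samples were treated with doxycycline at 2 µg/mL for 24 hours, which switches on the tagged cDNA in these lines, and were crosslinked at 0.15 J/cm2 and 254 nm. The anti-FLAG antibody recovers the tagged cDNA product, and the labels describe the replicates as independent and handled on different days.

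Totals were 783868 to 1328423 counts with exon 5, 624062 to 1844970 counts without exon 5 and 75504 to 173342 counts in the inputs. A count of 3 in 1 library was worth 2.16 to 5.67 CPM (counts scaled by TMM to a common library size) in the immunoprecipitates and 16.8 to 21.7 CPM in the inputs, so the inputs resolve low levels less well. Chtop itself averaged 385 ± 20.6 CPM with exon 5, 238 ± 36.7 CPM without exon 5 and 175 ± 256 CPM in the inputs (SD, n = 3 each). Of 12 neuronal and neuroblastoma markers, 8 were named in the tables, and their summed level was 9319 to 13446 CPM with exon 5, 6516 to 8156 CPM without exon 5 and 2586 to 5045 CPM in the inputs, mostly from Map1b. Nefl and Dbh were at 0 without exon 5 and in the inputs. Of 10 markers of other cell types, 4 were named, with a summed level of 1.47 to 18.3 CPM with exon 5, 5.75 to 26.6 CPM without exon 5 and 0 to 72.4 CPM in the inputs; Col3a1 and Krt18 were at 0 in all 9 libraries. The neuronal sum was higher with exon 5 than without, and its part in the results below was not tested.

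The 6 genes lie on 6 chromosomes (GRCm38.p6, the assembly of mm10). Fstl4 (ENSMUSG00000036264.9) is at chr11:52764489-53192450, Lrrk1 (ENSMUSG00000015133.17) at chr7:66258745-66388341 and Spock2 (ENSMUSG00000058297.16) at chr10:60106257-60135198. Epas1 (ENSMUSG00000024140.10) is at chr17:86753864-86833410, Paqr3 (ENSMUSG00000055725.11) at chr5:97081364-97111749 and Armc8 (ENSMUSG00000032468.11) at chr9:99478385-99568907. Counts were given per gene part, so the CDS and UTR statements below refer to these annotated parts, with lengths from the deposited length table. Fstl4, Lrrk1 and Spock2 also overlap annotated non-coding genes, and Paqr3 and Armc8 overlap coding genes described below.

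Each of the 6 genes had isoform libraries that did not overlap in the CPM of the gene total. Of the 8342 genes tested, 541 (6.49%) were likewise higher with exon 5 and 620 (7.43%) lower with exon 5 with no overlap, and since these values chose the genes nothing is read from their 6 of 6. With edgeR's quasi-likelihood test and Benjamini-Hochberg adjustment, 0 genes (0%) were higher and 0 (0%) lower with exon 5 than without over all 8342 genes; 93 had an unadjusted p below 0.05, and DESeq2 also called 0. No isoform difference below therefore passed a test across all genes. Each library pools many cells, so fewer cells carrying an RNA and less RNA per cell cannot be told apart.

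**Figure D1:**
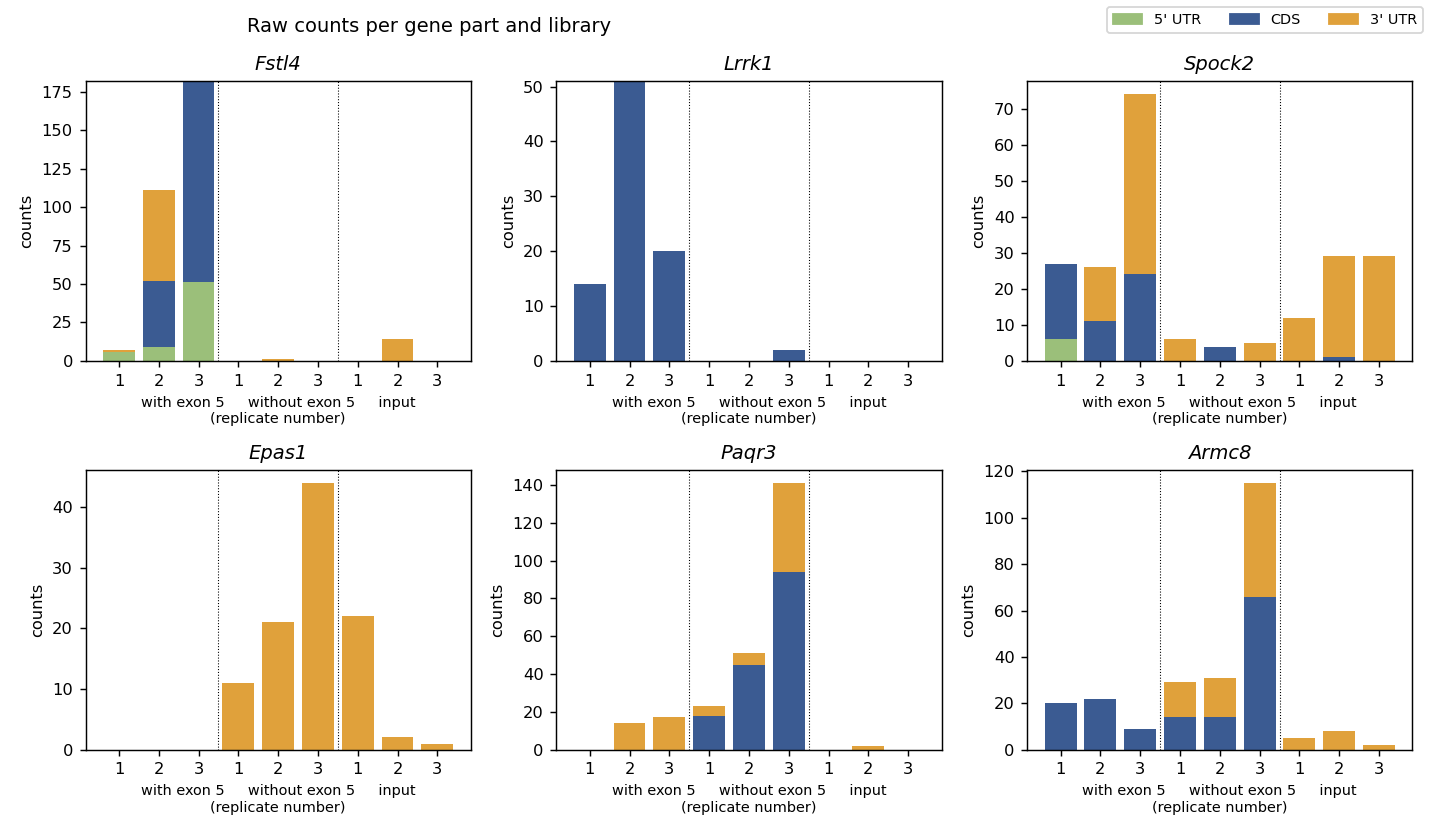
Raw counts of each gene in each library (vertical axis), stacked by 5' UTR, CDS and 3' UTR; the horizontal axis gives the replicates with exon 5, without exon 5 and of the inputs. Fstl4 and Lrrk1 had at most 2 counts in any library without exon 5, Epas1 had 0 counts in each library with exon 5, and the 3' UTR of Armc8 was counted without exon 5 and in the inputs but at 0 with exon 5.

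Fstl4 encodes a secreted follistatin-like glycoprotein. It had 7, 111 and 182 counts with exon 5, against 0, 1 and 0 counts without exon 5, and the inputs had 0, 14 and 0 counts. All 3 libraries with exon 5 were above all 3 without it, but replicate 1 was far below the other 2. The mean was 116 ± 91.8 CPM with exon 5 and 0.403 ± 0.70 CPM without exon 5 (SD, n = 3 each), which puts 99.7% of the CPM summed over the isoforms with exon 5. Summed counts were 300 with exon 5 and 1 without, a ratio of 343 after division by the summed TMM-scaled library sizes, as for all ratios of summed counts below, with an exact 95% interval of 61.1 to 13596 that covers counting error only. The fitted log2 fold change, with over without exon 5, was 7.62 (SE 2.06), the second highest of 8342 genes (rank 2).

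The counts of Fstl4 did not fall in the same part in each library with exon 5. The 5' UTR (259 bases) had 6, 9 and 51 counts, the CDS (2523 bases) 0, 43 and 131 counts, and the 3' UTR (1598 bases) 1, 59 and 0 counts. Replicate 2 thus had most of its counts in the 3' UTR (53.2%, exact 95% interval 43.4 to 62.7%), whereas replicate 3 had 72.0% in the CDS (64.9 to 78.4%) and 0 of 182 in the 3' UTR (exact 95% upper bound 2.01%). In the input of the line with exon 5 all 14 counts were in the 3' UTR. Without exon 5 the CDS was at 0 in each library, so the mean CDS level with exon 5 was at least 16.5-fold higher, computed against 3 counts per library. Replicate 1 with exon 5 was at 0 in the CDS as well, and the bound was 8.26-fold without replicate 3 and 24.8-fold without replicate 1.

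Lrrk1 encodes a leucine-rich repeat kinase of the ROCO family, related to Lrrk2. It had 14, 51 and 20 counts with exon 5, against 0, 0 and 2 counts without exon 5, and 0 counts in each input. The levels were 38.2 ± 31.7 CPM with exon 5 and 0.479 ± 0.83 CPM without exon 5 (SD, n = 3 each), and replicate 2 with exon 5 stood above the other 2. With exon 5 it was at least 2.01-fold higher than the inputs, against 3 counts per input, but without replicate 2 the bound was 1.05-fold, so the inputs do not resolve this difference. Summed counts were 85 with exon 5 and 2 without, a ratio of 48.6 (exact 95% interval 13.05 to 408, counting error only). In the fit, the log2 fold change with over without exon 5 was 5.60 (SE 1.87; rank 14 from the highest).

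All of these counts lay in the CDS of Lrrk1 (6142 bases), and its 3' UTR (1423 bases) was at 0 in all 9 libraries. With 85 counts, the share of the 3' UTR with exon 5 was 0%, with an exact 95% upper bound of 4.25%. Among 9082 genes with a CDS and a 3' UTR in the tables and at least 30 counts over the 6 immunoprecipitates, 404 (4.45%) likewise had a 3' UTR at 0 in every library.

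Spock2 encodes testican-2, an extracellular proteoglycan whose core protein carries a follistatin-like domain. It had 27, 26 and 74 counts with exon 5, against 6, 4 and 5 counts without exon 5, and 12, 29 and 29 counts in the inputs. The inputs had far fewer counts in all, so on the CPM scale they were highest, at 149 ± 69.0 CPM, with 49.6 ± 18.7 CPM with exon 5 and 6.59 ± 4.16 CPM without exon 5 (SD, n = 3 each). Spock2 was thus lower in both immunoprecipitates than in the inputs, and lowest without exon 5. With exon 5 it had 88.3% of the CPM summed over the isoforms, and the fit put the log2 fold change at 2.93 (SE 1.10; rank 73 from the highest).

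The counts of Spock2 were spread over its parts as follows, and its part use did not pass the test over all genes described below. With exon 5 the CDS (1278 bases) had 21, 11 and 24 counts and the 3' UTR (3720 bases) 0, 15 and 50 counts. Without exon 5 the CDS had 0, 4 and 0 counts and the 3' UTR 6, 0 and 5 counts. The inputs had 0, 1 and 0 counts in the CDS and 12, 28 and 29 counts in the 3' UTR. The CDS therefore held 44.1% of the summed counts with exon 5 (exact 95% interval 35.3 to 53.2%; 77.8, 42.3 and 32.4% in the 3 replicates), 26.7% without exon 5 (7.79 to 55.1%, of 15 counts) and 1.43% in the inputs (0.0362 to 7.70%). Per length, the level with exon 5 was 18.3 ± 5.75 CPM per kb in the CDS and 6.28 ± 6.47 CPM per kb in the 3' UTR, whereas the inputs had 1.46 ± 2.53 and 39.5 ± 18.4 CPM per kb in those parts (SD, n = 3 each). The 56 CDS counts with exon 5 against 1 in the inputs gave a ratio of 11.2 after that scaling (exact 95% interval 1.92 to 448, counting error only), opposite in direction to the gene total.

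Epas1 encodes HIF-2alpha, an oxygen-regulated transcription factor that pairs with Arnt. It had 0, 0 and 0 counts with exon 5, against 11, 21 and 44 counts without exon 5, and 22, 2 and 1 counts in the inputs. The 3 libraries without exon 5 were close to each other on the CPM scale, at 20.8, 25.4 and 31.6 CPM, while the inputs ran from 7.24 to 136 CPM. Without exon 5 the level was at least 6.65-fold higher than with exon 5, taking 3 counts for each library at 0. The fitted log2 fold change between the isoforms, -7.03 (SE 1.94; rank 9 from the lowest), rests on a group at 0 and is no bound.

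Every count of Epas1, 76 without exon 5 and 25 in the inputs, lay in the 3' UTR (2311 bases), and the CDS (2622 bases) and 5' UTR (583 bases) were at 0 in all 9 libraries. Among the same 9082 genes, 159 (1.75%) had a CDS at 0 in every library. Of 6638 3' UTRs with at least 30 counts over the 6 immunoprecipitates, a limit set once the values were seen, 40 (0.603%) had a count in 3 of 3 libraries without exon 5 and 0 counts in each library with exon 5. In the reverse direction there were 6 (0.0904%). The 40 include Epas1 and Armc8.

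Paqr3 encodes a membrane protein of the Golgi that belongs to the PAQR family. It had 0, 14 and 17 counts with exon 5, against 23, 51 and 141 counts without exon 5, and 0, 2 and 0 counts in the inputs. The mean was 12.3 ± 10.9 CPM with exon 5, 68.8 ± 29.6 CPM without exon 5 and 3.73 ± 6.47 CPM in the inputs (SD, n = 3 each). Libraries without exon 5 were all above those with exon 5, and 84.8% of the CPM summed over the isoforms was without exon 5. The fitted log2 fold change, with over without exon 5, was -2.46 (SE 1.48; rank 144 from the lowest).

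The isoform difference of Paqr3 lay in its CDS (942 bases). The CDS had 0 counts in each library with exon 5, against 18, 45 and 94 counts without exon 5, and 0 counts in each input, so without exon 5 it was at least 13.3-fold higher than with exon 5. The 3' UTR (2836 bases) had 0, 14 and 17 counts with exon 5, against 5, 6 and 47 counts without exon 5, and these ranges overlapped. In the 3' UTR the mean was 12.3 ± 10.9 CPM with exon 5 and 16.8 ± 14.7 CPM without exon 5 (SD, n = 3 each). Without exon 5 the level per length was 55.2 ± 18.0 CPM per kb in the CDS and 5.93 ± 5.19 CPM per kb in the 3' UTR. Of 8337 coding sequences with at least 30 counts over the 6 immunoprecipitates, 54 (0.648%) were counted in 3 of 3 libraries without exon 5 and in none with exon 5, and 9 (0.108%) were so in the reverse direction. Paqr3 overlaps Bmp2k, a kinase gene on the opposite strand, over 9685 bases at its 3' end, and no source used here states the strand setting of the counting, so reads of the 2 genes there cannot be told apart. Bmp2k was counted in all 6 immunoprecipitates, with 6, 9 and 39 counts with exon 5 and 18, 6 and 28 counts without exon 5 in its own 3' UTR.

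Armc8 encodes an armadillo-repeat subunit of the CTLH (GID) ubiquitin ligase. Its total was 20, 22 and 9 counts with exon 5, against 29, 31 and 115 counts without exon 5, and 5, 8 and 2 counts in the inputs. This gave 23.4 ± 12.9 CPM with exon 5, 58.3 ± 22.8 CPM without exon 5 and 30.1 ± 15.2 CPM in the inputs (SD, n = 3 each), with 71.3% of the isoform CPM without exon 5. The fitted log2 fold change, with over without exon 5, was -1.32 (SE 1.12) (rank 636 from the lowest of 8342 genes), so the total was not at the edge of the distribution.

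The parts of Armc8 differed. The 3' UTR (4248 bases) had 0 counts in each library with exon 5, against 15, 17 and 49 counts without exon 5, and 5, 8 and 2 counts in the inputs. Without exon 5 it was at least 7.20-fold higher than with exon 5, and the inputs were at least 7.71-fold higher than the libraries with exon 5. The CDS (2082 bases) had 20, 22 and 9 counts with exon 5, against 14, 14 and 66 counts without exon 5, and 0 counts in each input. CDS levels overlapped between the isoforms, at 23.4 ± 12.9 CPM with exon 5 and 30.3 ± 15.6 CPM without exon 5 (SD, n = 3 each). Armc8 overlaps Nme9 on the opposite strand over 1515 bases at its 3' end, and reads there cannot be told apart without the strand setting.

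**Figure D2:**
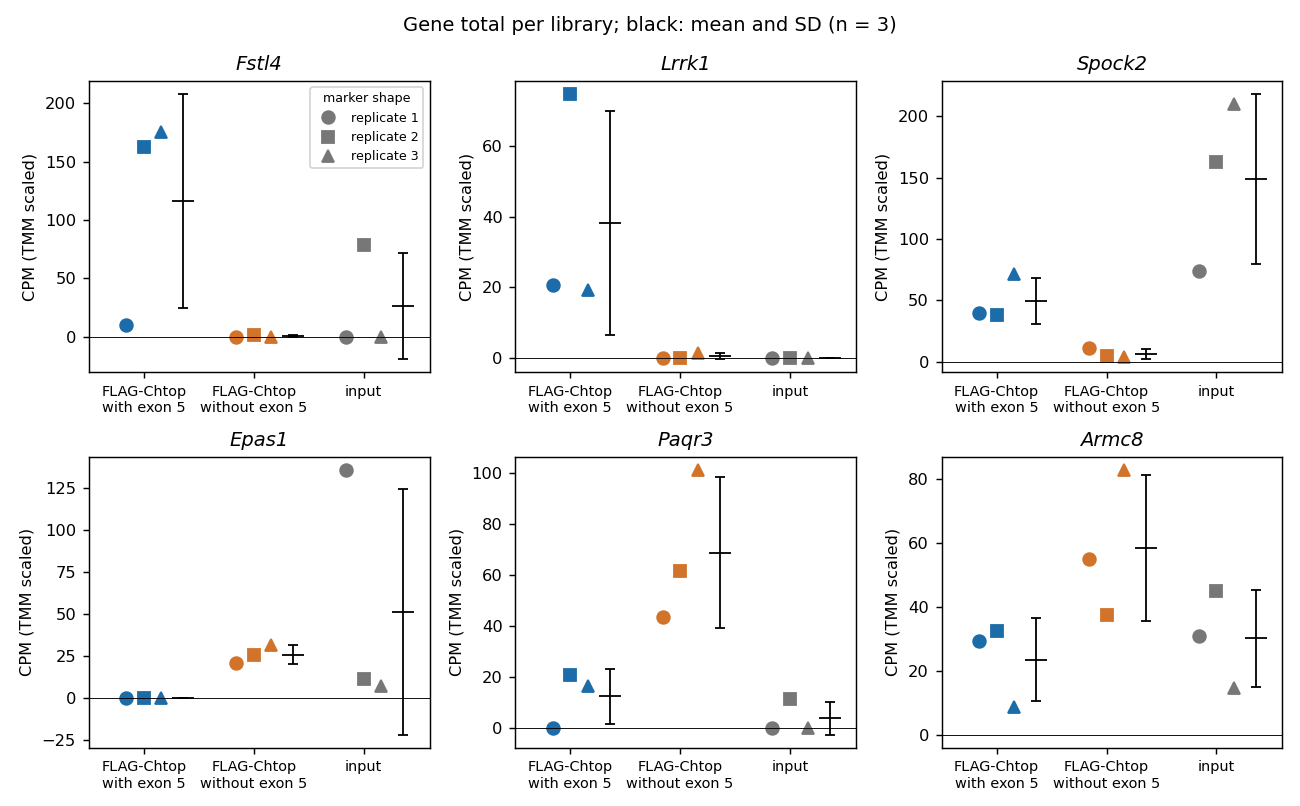
CPM of the gene total in each library (vertical axis, TMM scaled) for FLAG-Chtop with exon 5, without exon 5 and the inputs (horizontal axis); marker shapes give the replicate, and black bars the mean ± SD (n = 3), which can reach below 0. Isoform groups do not overlap in any panel, and single inputs stand apart for Fstl4 (78.4 CPM in replicate 2) and Epas1 (136 CPM in replicate 1).

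The use of gene parts was also compared between the 6 immunoprecipitates together and the 3 inputs, with diffSpliceDGE over all genes. It called 420 of 8230 genes (5.10%). Of the 6 genes, Lrrk1 and Epas1 had counts in a single part and were not tested, Fstl4, Spock2 and Paqr3 did not pass, and Armc8 passed, with 145 CDS and 81 3' UTR counts in the immunoprecipitates and 0 CDS and 15 3' UTR counts in the inputs. The counts that chose Armc8 entered this fit. The call was lost with a replicate block and when replicate 1 or 2 with exon 5 or any of the 3 replicates without exon 5 was left out. Over all genes the CDS held 66.1 to 68.5% of counts with exon 5, 66.7 to 68.8% without exon 5 and 45.4 to 47.6% in the inputs, so a lower CDS share in the inputs was common to the libraries.

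**Figure D3:**
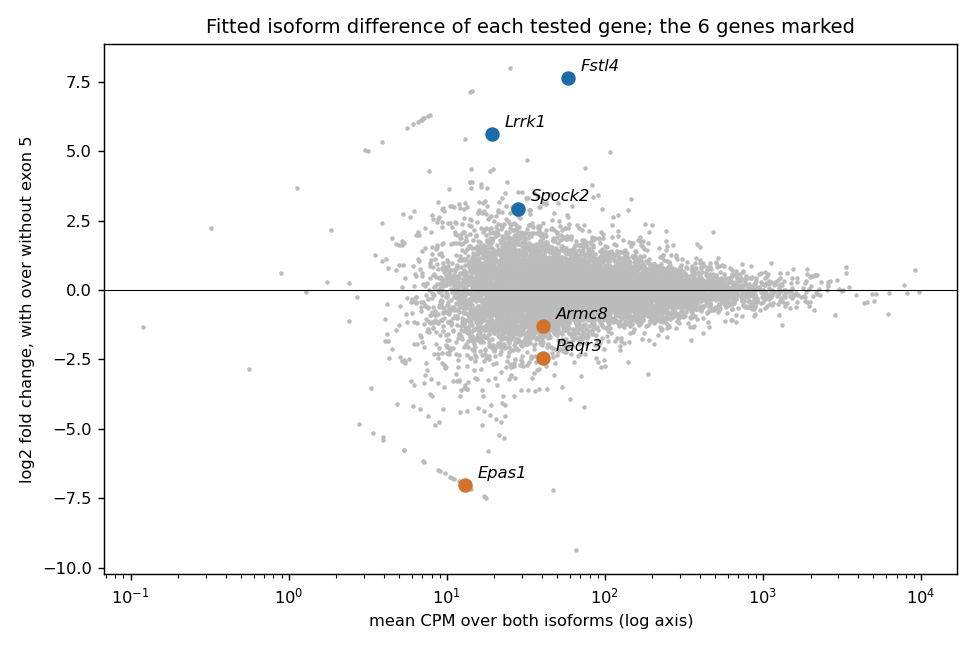
Fitted log2 fold change of the gene total, with over without exon 5 (vertical axis), against the mean CPM over both isoforms (horizontal log axis), for the 8342 genes tested (grey) with the 6 genes marked, blue if higher and orange if lower with exon 5. Fstl4 (7.62), Lrrk1 (5.60) and Epas1 (-7.03) lie at the edges, and Armc8 (-1.32) lies within the cloud; genes on the outer diagonal streaks have a group at or near 0.

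Between genes, levels were compared per length of all counted parts. With exon 5 the order was Fstl4 (26.5 ± 21.0 CPM per kb), Spock2 (9.46 ± 3.56), Lrrk1 (5.05 ± 4.19), Armc8 (3.70 ± 2.03), Paqr3 (3.25 ± 2.87) and Epas1 at 0, in CPM per kb (SD, n = 3 each). Neighbours from Fstl4 to Paqr3 did not differ beyond these SDs. Without exon 5 the order was Paqr3 (18.2 ± 7.84), Armc8 (9.21 ± 3.60), Epas1 (4.70 ± 0.99), Spock2 (1.26 ± 0.79), Fstl4 (0.092 ± 0.16) and Lrrk1 (0.063 ± 0.11), in CPM per kb. There Epas1 and Spock2, and Spock2 and Fstl4, were separated by more than their SDs, while the other neighbours were not. In the inputs Spock2 was first (28.4 ± 13.1), followed by Epas1 (9.32 ± 13.3), Fstl4 (5.97 ± 10.3), Armc8 (4.75 ± 2.40), Paqr3 (0.99 ± 1.71) and Lrrk1 at 0, in CPM per kb. No neighbours in the inputs were separated by more than their SDs, and only Spock2 and Armc8 had more than 1 count in all 3 inputs.

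Against the inputs, the fitted gene totals fell on both sides of the median gene, whose log2 fold change was 1.03 with exon 5 and 1.03 without exon 5. This median moves with the scaling, to 0.63 and 0.59 with DESeq2's size factors and 0.35 and 0.33 with library size alone, so values are best read against it. With exon 5 over input the log2 fold change was 2.11 (SE 1.57) for Fstl4, -1.58 (SE 1.02) for Spock2, 1.59 (SE 1.71) for Paqr3 and -0.37 (SE 1.15) for Armc8. Without exon 5 over input it was -5.51 (SE 1.97) for Fstl4, -4.50 (SE 1.17) for Spock2, -0.98 (SE 1.42) for Epas1, 4.05 (SE 1.75) for Paqr3 and 0.94 (SE 1.15) for Armc8. Several of these values rest on 1 input. Without input replicate 2, which held all input counts of Fstl4 and Paqr3, Fstl4 without exon 5 turned to 1.64, and Paqr3 had 6.08 with exon 5 and 8.57 without exon 5, fitted values against inputs at 0 that are no bounds. Without input replicate 1, Epas1 without exon 5 turned to 1.57, and with the replicate block it was 0.055. The 2 comparisons share their inputs. Lrrk1 in both, and Epas1 with exon 5, have a group at 0, and their fitted values are left out here; for Epas1 the inputs were at least 13.2-fold higher than the libraries with exon 5, but input replicate 1 carried that value, and without it the bound was 2.37-fold. For Paqr3, which had 2 input counts, the ratio to the inputs was 3.09 with exon 5 (exact 95% interval 0.786 to 26.6) and 18.7 without exon 5 (5.12 to 156), for counting error only.

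Of the 6 genes, 0 were called higher than input with either isoform, while 693 of 8342 genes (8.31%) were called higher with exon 5 and 677 (8.12%) without exon 5. Called lower were Epas1 with exon 5, beside 72 genes in all (0.863%), and Spock2 without exon 5, beside 49 genes in all (0.587%). Over all genes the split of higher and lower calls was 359 and 88 with exon 5 under DESeq2's size factors, and under library size alone it was 262 and 128 with exon 5 and 210 and 86 without exon 5. These calls use the counts that chose the genes, so nothing is read from them. Both were lost in 9 alternatives, including each of the 6 settings that left out an isoform library. For Epas1, leaving out input replicate 1 also ended the call, with a log2 fold change of -5.60.

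The inputs of the 2 Chtop lines differed for some of the same genes, with 1 library per line and hence no test. Fstl4 had 14 counts (78.4 CPM) in the input of the line with exon 5, against 0 in the input of the line without exon 5 and 0 in that of the FLAG-GFP line. The line with exon 5 was at least 4.23-fold higher than the line without, against 3 counts. Epas1 had 2 counts (11.2 CPM) in the input of the line with exon 5, against 22 counts (136 CPM) in that of the line without exon 5 and 1 count (7.24 CPM) in that of the FLAG-GFP line, a ratio between the Chtop lines of 0.0825 (exact 95% interval 0.0094 to 0.335). The intervals of the line ratios here and below cover counting error only, so with 1 library per line they cannot separate the lines. For both genes the inputs of the lines differed in the direction in which the isoforms differed.

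Spock2 had 162 CPM in the input of the line with exon 5, 74.1 CPM in that of the line without exon 5 and 210 CPM in that of the FLAG-GFP line, a ratio between the Chtop lines of 2.19 (1.08 to 4.72), again in the direction of the isoforms. Armc8 had 44.8, 30.9 and 14.5 CPM in the inputs of the line with exon 5, the line without exon 5 and the FLAG-GFP line. The ratio between the Chtop lines was 1.45 (0.419 to 5.64), a counting interval that spans both directions. Lrrk1 was at 0 in each input, and Paqr3 had 2 counts in the line with exon 5 and 0 in the others, opposite in order to its immunoprecipitates. The part of RNA level in the lines in the isoform differences was not tested.

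Set against the input of its own line, the mean immunoprecipitate of Fstl4 was 1.48 times the input with exon 5. Its 3 libraries were at 10.3, 163 and 175 CPM and that input at 78.4 CPM, so replicate 1 lay below the input. In the 3' UTR, which held all 14 input counts, the mean of Fstl4 with exon 5 was 0.374 times the input. Spock2 stood at 0.306 times its input with exon 5 and 0.0889 times without exon 5. Epas1 without exon 5 stood at 0.191 times its input of 136 CPM, while the other 2 inputs, at 11.2 and 7.24 CPM, lay below all 3 libraries without exon 5. Paqr3 with exon 5 stood at 1.10 times its input of 2 counts, and Armc8 at 0.523 times with exon 5 and 1.89 times without exon 5. Of the ratios of gene totals, only those of Fstl4 and Paqr3 with exon 5 and of Armc8 without exon 5 were above 1. A ratio of 1 is not the level of the median gene, whose log2 fold change over all inputs was 1.03 with either isoform. No median over the input of 1 line was computed, so these ratios are not read as enrichment.

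**Figure D4:**
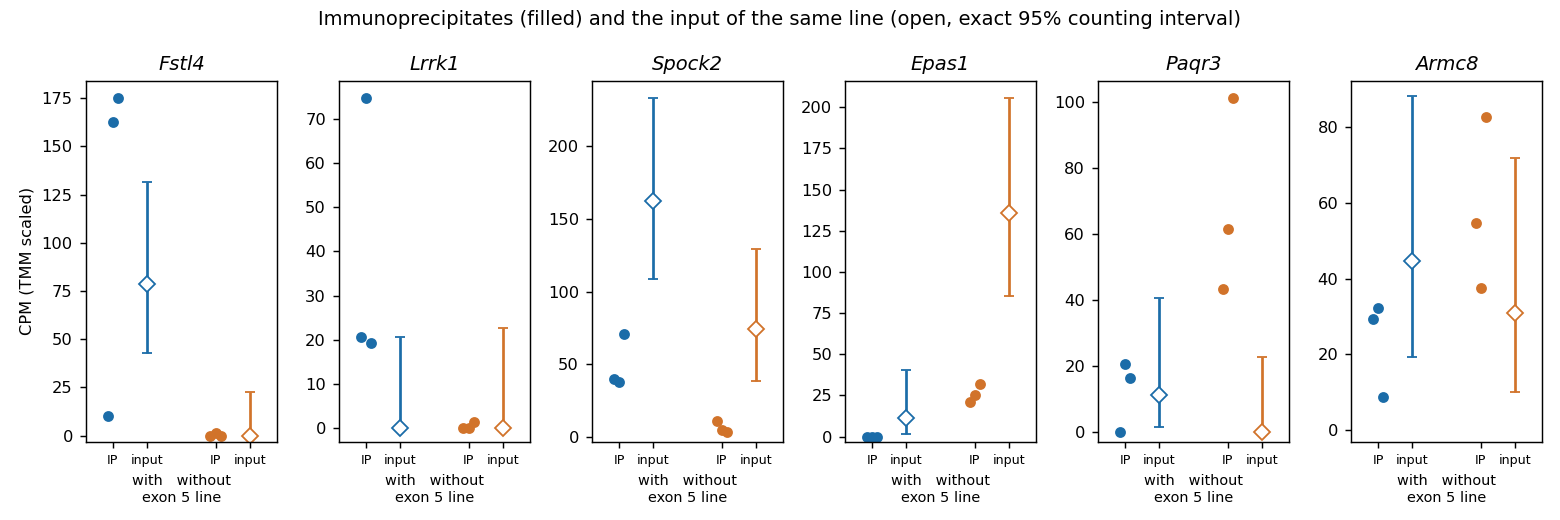
CPM of the gene total (vertical axis, TMM scaled, its own scale in each panel) in the 3 immunoprecipitates (filled, IP) and in the input of the same line (open, with the exact 95% counting interval), for the line with exon 5 (left, blue) and the line without exon 5 (right, orange). For Fstl4, Spock2 and Epas1 the open symbol is also higher in the line whose immunoprecipitates are higher, and for Paqr3 and Armc8 it is not.

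The authors' deposited table of isoform differences lists 3 of the genes by CDS and Armc8 by CDS and 3' UTR. In the authors' deposited table the log2 fold change of the CDS, with over without exon 5, was 5.92 for Lrrk1 (rank 2 from the highest of 4532), 3.89 for Spock2 (rank 13 from the highest) and -7.75 for Paqr3 (rank 1 from the lowest). In the authors' deposited table Armc8 had -0.32 in the CDS, in the class for both isoforms, and -6.91 in the 3' UTR (rank 3 from the lowest of 2787), in the class without exon 5. That table puts 7.41% of coding sequences in the class with exon 5 and 8.32% in the class without it, and 9.87% and 10.1% of 3' UTRs in those classes. For Fstl4 and Epas1 it held no log2 fold change in any part. The deposited values come from the same libraries and are no second measurement. The Paqr3 CDS and the Armc8 3' UTR had 0 counts in each library with exon 5. Their deposited values and ranks thus rest on a group at 0 and are no bounds.

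Among the other named genes, those with the profile most like each of the 6 were ranked by Pearson's r of log2 CPM over the 9 libraries, a description in which all genes share the libraries and their depth. For Fstl4 they were Arpc5l (0.911), Spag1 (0.896) and Tap1 (0.888), and for Lrrk1 they were Ddrgk1 (0.948), Chmp7 (0.903) and Dpyd (0.892). For Spock2 they were Ttpal (0.933), Bhlhb9 (0.928) and Naca (0.889). Epas1 was most like Stip1 (0.891), Sqstm1 (0.882) and Fkbp1a (0.868), all of them counted with exon 5 as well. Paqr3 was most like Tpra1 (0.962), Cyfip2 (0.946) and Alad (0.944), and Armc8 most like Mapre1 (0.898), Tmem209 (0.880) and Slc6a9 (0.869). Ddrgk1 repeated the pattern of Lrrk1 most closely, with 29, 79 and 28 counts with exon 5, against 4, 0 and 0 counts without exon 5, and 0 in each input.

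The 6 genes differed among themselves as well. Over the 9 libraries, the log2 CPM of Fstl4 and Lrrk1 correlated at 0.71, and both ran against Epas1, at -0.71 and -0.79. Spock2 ran against Paqr3 at -0.78, and Paqr3 and Armc8 correlated at 0.54. These values follow the grouping that chose the genes.

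Genes that work with the 6 were taken from lists and tested against input over all 8342 genes. Between the isoforms 0 of all 8342 genes were called, so no list member could be. Against input, 8.31% of all genes were called higher and 0.863% lower with exon 5. Without exon 5 these shares were 8.12% and 0.587%. The lists here and below hold few tested genes, so nothing is read from a count of 0 or 1 called. Of 13 partners and regulators of the HIF factors, 7 were named and 6 tested, and 0 passed with either isoform. Their median log2 fold change was 0.86 with exon 5 and 0.98 without, near the 1.03 of all genes. Arnt, the shared HIF partner, averaged 75.1 ± 15.8 CPM with exon 5, 162 ± 37.8 CPM without exon 5 and 115 ± 102 CPM in the inputs. Egln1, a prolyl hydroxylase that marks HIF proteins for degradation, had 72.4 ± 34.2, 71.8 ± 25.1 and 5.60 ± 9.70 CPM in those groups, and Hif1a 53.4 ± 45.5, 68.2 ± 33.1 and 21.1 ± 30.5 CPM (SD, n = 3 each). Neither Arnt, Egln1 nor Hif1a was at 0 with exon 5, unlike Epas1.

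Of 13 HIF target genes, 7 were named and 5 tested, and Vegfa, the vascular endothelial growth factor, was higher with both isoforms. Vegfa had 767, 1276 and 1816 counts with exon 5, 982, 1838 and 4057 counts without exon 5, and 70, 86 and 9 counts in the inputs. All 6 immunoprecipitates were above all inputs on the CPM scale, at 1581 ± 399 CPM with exon 5, 2331 ± 539 CPM without exon 5 and 326 ± 227 CPM in the inputs. The log2 fold change of Vegfa over input was 2.27 with exon 5 (edgeR adjusted p = 0.0334) and 2.83 without exon 5 (edgeR adjusted p = 0.0172). The call with exon 5 was lost in 10 of 17 alternatives, including when any 1 of the 6 isoform libraries was left out (adjusted p 0.0598 to 0.0920). The call without exon 5 was lost in 3 of 17, including without replicate 2 or 3 of that isoform (adjusted p 0.0510 and 0.0694). The median log2 fold change of the 5 targets was -0.77 with exon 5 and 0.94 without, and between the isoforms it was -1.55, beside -0.03 for all genes. Ldha, a glycolytic enzyme, had 34.3 ± 37.8, 102 ± 5.03 and 288 ± 197 CPM with exon 5, without exon 5 and in the inputs.

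Of 11 CTLH ligase genes other than Armc8, 9 were named and 8 tested, and 0 passed. Their median log2 fold change over input was 0.49 with exon 5 and 0.97 without. Wdr26, a ligase subunit, had 253 ± 105, 243 ± 80.7 and 81.4 ± 74.8 CPM with exon 5, without exon 5 and in the inputs, and Rmnd5a, a RING subunit, had 151 ± 44.8, 252 ± 87.7 and 159 ± 7.44 CPM. Ranbp9, a scaffold subunit named after its values were seen, is another of the 40 genes whose 3' UTR was counted without exon 5 alone. Its 3' UTR had 0 counts with exon 5, 41 without exon 5 and 0 in the inputs, and its CDS had 76, 244 and 9 counts in those groups. The other 8 named CTLH genes had 3' UTR counts with both isoforms. Wdr26 had 272 counts with exon 5 and 195 without, Maea 139 and 69, and Gid4 91 and 27. The rest had fewer counts with exon 5 than without. Gid8 had 1 and 51, Mkln1 35 and 122, Rmnd5a 286 and 545, Ranbp10 165 and 303, and Ypel5 8 and 18. These are raw counts, not scaled for depth.

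Of 17 genes of the PAQR family and of a kinase cascade, 12 were named and 10 tested, and 0 passed. Their median log2 fold change over input was 0.09 with exon 5 and 0.36 without, or -0.17 and -0.07 with the gene whose inputs were at 0 set to its bound, beside 0.70 and 0.72 for all genes treated so. Paqr7, another member of the PAQR family, had 6, 42 and 23 counts with exon 5, against 18, 9 and 26 counts without exon 5, and 0 in each input. Adipor1 and Adipor2, the adiponectin receptors, and Mmd were likewise counted in all 6 immunoprecipitates, while Paqr6 and Paqr8 were at 0 in all 9 libraries.

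Of 13 genes of the follistatin and testican family, 9 were named and 6 tested, and Agrn, which encodes the proteoglycan agrin, was higher than input without exon 5. Agrn had 1078, 1111 and 1666 counts with exon 5, 1191, 2213 and 4102 counts without exon 5, and 67, 110 and 1 counts in the inputs. Its log2 fold change over input was 2.92 without exon 5 (edgeR adjusted p = 0.0408), a call lost in 9 of 17 alternatives, including when any 1 of the 6 isoform libraries was left out (adjusted p 0.0680 to 0.110), and 2.21 with exon 5 (edgeR adjusted p = 0.0853). The family median was 1.39 with exon 5 and 1.72 without, beside 1.03 for all genes with either isoform. It was 0.29 and 0.26 with the 2 genes whose inputs were at 0 set to their bounds. All genes treated so had 0.70 and 0.72. Fstl1, another secreted follistatin-like protein, had 59.7 ± 25.0, 49.1 ± 29.4 and 325 ± 216 CPM with exon 5, without exon 5 and in the inputs, so unlike Fstl4 it was counted with both isoforms. Fstl5, Spock3 and Smoc2 were at 0 in all 9 libraries.

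Of 10 ROCO family and endosomal partner genes, 9 were named and 6 tested, and 0 passed. Their median log2 fold change over input was 1.27 with exon 5 and 1.54 without. Lrrk2, the closest relative of Lrrk1 in the list, was at 0 in all 9 libraries. Dapk1, a death-associated kinase with a ROC domain, had 429 ± 58.6, 514 ± 84.3 and 268 ± 168 CPM with exon 5, without exon 5 and in the inputs. Mfhas1, another protein of the ROCO family, had 451 ± 187, 343 ± 77.4 and 45.2 ± 39.7 CPM in those groups. Unlike Lrrk1, both overlapped between the isoforms.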

How the data were processed

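Raw counts of the 5' UTR, CDS, 3' UTR and whole gene were deposited, with part lengths in bases and a log2 fold change between the isoforms per gene part, per the file headers. The submitters' processing notes name mm10, TopHat2 and DESeq2; no source used here states how reads were collapsed or stranded, and intervals and floors cover counting error only. In the combined table, 27 columns of per-sample values were not used. Input columns were matched by primer number and line, since the column names number 2 inputs differently from the titles.

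The 9 libraries entered 1 fit of edgeR 4.0.16 in R 4.3.3 (quasi-likelihood F-test, robust, TMM, filterByExpr with minimum count 10 and minimum total 15, Benjamini-Hochberg threshold 0.05). Part use was tested with diffSpliceDGE on parts with at least 10 counts. DESeq2 1.42.0, voom of limma 3.58.1, other scalings, other filters, replicate blocks and leaving out each library were alternatives. The procedures were run on simulated data, with inputs at the mean depth of the immunoprecipitates and changes set only in well-counted genes. That simulation therefore does not cover inputs as shallow, or genes as sparse, as those here. Same-numbered isoform libraries showed little correlation in their deviations (r = -0.0012, 0.031 and 0.039). Such values in sparse counts cannot exclude a pairing by number. The main fit used no pairing, and the replicate block was an alternative. CPM are scaled by TMM. The SE of a fitted log2 fold change is the absolute log2 fold change divided by the square root of its F statistic. With a group at or near 0, such an SE does not bound the fold change. Bounds take 3 counts per library at 0.

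The 6 genes and the lists were chosen with earlier results of these data known. Named besides them were Chtop, per gene the 3 most alike by Pearson's r (log2 CPM, prior count 2), list genes past the threshold, and up to 4 per list by mean CPM. Values of some genes that this rule names are not reported here.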

Additional observations from a re-analysis of the deposited data

How the results depend on the processing

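Counts of called genes moved with most settings. With exon 5 against input, 765 genes passed; the count was 447 with DESeq2's size factors, 390 with library size alone, 1211 with no filter on low counts, 1695 with DESeq2, 29 with only the groups compared and 60 to 2412 with each library left out. Without exon 5 against input, 726 passed, against 358, 296, 1184, 1603 and 30 in those settings and 39 to 2355 with each library left out. With the replicate block the counts were 273 with exon 5 and 284 without, and 296 and 294 with the inputs numbered as in the column names, a setting chosen after seeing the data. Voom gave 956 and 1062. Between the isoforms the count of 0 became 4 with no filter (Rpl22l1, 1700028K03Rik and 2 genes without a symbol), 2 with voom (Huwe1, Hjurp) and 2 with only the groups compared (Cnr1 and 1 without a symbol), none of them among the 6 genes, and stayed at 0 with the replicate block and with each library left out. Part use, with 420 genes, gave 18 with the replicate block and 98 to 529 with each library left out.

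All isoform differences of the 6 genes kept their direction in the alternatives run. These differences chose the genes, and the isoform libraries of each gene did not overlap. The kept directions were therefore largely fixed in advance and are no support. For Lrrk1, leaving out replicate 3 without exon 5 put that group at 0 and the fitted value at 7.35. Against input, directions turned for Armc8 with exon 5, which ran from -0.68 to 0.080 with each library left out and was 0.07 without replicate 3 of that isoform. They turned for Fstl4 without exon 5, which ran from -6.98 to 1.64 (without input replicate 2), and for Lrrk1 without exon 5, at -1.37 with DESeq2 and -1.61 with voom. For Epas1 without exon 5 the log2 fold change was 0.055 with the replicate block, 0.0045 with the column-name block and -1.47 to 1.57 with each library left out, the highest without input replicate 1. Without input replicate 2, Fstl4 with exon 5 had 9.30 against inputs at 0, which is no bound. For Epas1, a fit with only the groups with exon 5 and input could not be made, since the gene did not pass its filter. Leaving out libraries behind a fold bound, also chosen after seeing the data, moved 3 of 7 bounds by over 1.5 times (Epas1 with exon 5 and Lrrk1 with exon 5, both against input, and the Fstl4 CDS between the isoforms), as given beside them. The causes were not tested. The inputs, at 75504 to 173342 counts, limit every comparison with them.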
